A study of Mus musculus with 18 samples.

Results

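Thrombospondins are secreted, calcium-binding glycoproteins of the extracellular matrix, and the mouse genes of the family are Thbs1, Thbs2, Thbs3, Thbs4 and Comp (cartilage oligomeric matrix protein). They were measured here with 8 of the 41174 non-control probes of a one-colour Agilent mouse array, namely those whose gene name in the scanner output was 1 of the 5 symbols. The 8 probes stand for 5 of the 19218 genes tested: 3 probes are for Thbs1, 2 for Thbs4 and 1 each for Thbs2, Thbs3 and Comp. The filter on dim probes, which asked for signal above background throughout 1 group or more, kept all 8, and 3 of the 8 were well above background on each of the 18 arrays. The family was chosen by its measured levels, after their pattern across depots and fractions had been seen, so its levels and differences are given as a description without a test.

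RNA came from young adult male mice of the C57BL/6 strain, with no treatment or engineered allele named for any group. Interscapular brown, inguinal and epididymal fat were each digested with collagenase and spun, which gave floating adipocytes and a pellet, the stromal-vascular fraction (SVF), in which erythrocytes were lysed. The SVF holds progenitors, fibroblasts, vascular and blood cells. This gave 6 groups of 3 arrays, labelled as biological triplicates, and whether an array holds 1 animal or a pool is not stated.

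Thrombospondin 1 and 2 assemble as trimers and carry type 1 repeats, through which thrombospondin 1 binds the receptor CD36 and activates latent TGF-beta, and both are known as inhibitors of angiogenesis. Thrombospondin 3, thrombospondin 4 and Comp assemble as pentamers without type 1 repeats and are known mainly from bone, tendon, muscle and cartilage. Thrombospondin 1 is secreted by platelets and many stromal cells, and it is known in adipose tissue as a product that increases in obesity.

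The 75th percentile of the processed signal ran from 338 to 1257 over the 18 arrays, and 49.6% to 87.9% of spots were well above background. The brown adipocyte arrays were at 338, 474 and 438, with 49.6%, 56.9% and 58.5% of spots well above background. Brown SVF arrays were at 797, 732 and 993, with 67.2%, 72.2% and 69.2%. The lowest log2 level well above background was -3.50 to -4.34 on brown adipocyte arrays and -5.71 to -5.92 on brown SVF arrays. The part of this in the brown differences was not tested. All 5 mature adipocyte markers were higher in the adipocyte fraction of each depot, and 5, 4 and 3 of 5 progenitor and fibroblast markers were lower there, in the order brown, inguinal, epididymal (limma, adjusted p under 0.05). In brown fat the adipocyte marker count was 2 when SVF replicate 1 was left out, and 3 when SVF replicate 3 or 1 of adipocyte replicates 1 and 3 was. The inguinal fibroblast count of 4 fell to 2 when 1 of SVF replicates 1 and 2 or adipocyte replicate 3 was left out, and the epididymal count of 3 to 2 when SVF replicate 3 or adipocyte replicate 1 was. Of the libraries, inguinal SVF replicate 1 stood apart with a mean mesothelial marker level of 3.99, against -5.87 and -5.94 in its other replicates, epididymal adipocyte replicate 3 stood apart from its group, and epididymal adipocyte replicate 1 had the highest share of spots above background. The 6 adipocyte arrays of white fat were read with another version of the scanner software than the other 12, on slides and scan days of their own. In inguinal and epididymal fat, therefore, fraction and software, slide and scan day cannot be told apart. The same holds for brown against white adipocytes, whereas the brown fractions shared slides and scan days. Inguinal and epididymal adipocytes shared the software version but no slide or scan day, so depot cannot be told apart from these. The 3 SVF groups shared scan days, but only the third replicate of each was on a common slide, and the other 2 brown SVF arrays were on a slide without inguinal or epididymal SVF.

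The sequences below are those of some of the probes, since each level is the signal of 1 such oligonucleotide. For Thbs2 and Comp they are the probes whose levels are given. For Thbs1 and Thbs4 they are other probes than the brightest, whose sequence is not shown, and no Thbs3 sequence is shown. The sequences are 60 bases long, were read from the array files and are placed on the mouse build mm8. The first pair, both for Thbs1, is shown because these probes and the brightest Thbs1 probe differed in how far the brown fractions were apart. The capitals mark a run of 11 bases that this pair shares.
Thbs1 A_52_P337086, chr2:117814035-117814094, plus strand: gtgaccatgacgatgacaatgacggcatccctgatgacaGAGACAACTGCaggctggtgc
Thbs1 A_52_P337092, chr2:117812417-117812597, plus strand: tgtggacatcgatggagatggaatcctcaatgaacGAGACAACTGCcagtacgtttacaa
Thbs2 A_51_P461877, chr17:14404116-14405379, minus strand: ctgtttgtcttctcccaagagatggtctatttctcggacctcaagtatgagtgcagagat
Thbs4 A_51_P353221, chr13:93855918-93855977, minus strand: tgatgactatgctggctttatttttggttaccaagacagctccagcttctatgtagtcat
Comp A_51_P409010, chr8:73310782-73310915, plus strand: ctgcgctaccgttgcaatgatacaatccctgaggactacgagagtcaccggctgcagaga
The annotated spans of A_52_P337092 (181 bases), A_51_P461877 (1264 bases) and A_51_P409010 (134 bases) exceed the probe's length, and their exons were not analysed here. Over the 24 pairs of probes for different thrombospondins, the longest shared run was 4 to 8 bases.

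Levels are log2 signals relative to the array's 75th percentile, so 0 is that percentile and each unit is a 2-fold step. They are comparable between arrays for 1 probe, not between probes. For each gene the brightest probe is given unless another is named. A difference is the first group's mean minus the second's, with limma's standard error (SE), and groups do not overlap when every array of one lies above every array of the other.

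In brown fat, all 5 thrombospondins were lower in adipocytes than in the SVF, and for all 5 the arrays of the fractions did not overlap. Over all genes, 17.1% of 19190 were lower and 30.0% higher without overlap. The members were picked with this contrast in view, so nothing is read from the count. With Comp, which had no signal above background in brown adipocytes, at its bound, the median difference of the 5 was -2.78, against 0.15 over all genes. In inguinal adipocytes, 1 of 5 was higher (Comp) and 1 of 5 lower (Thbs3) than in the SVF without overlap, where 16.5% and 10.3% of all genes were, and the median was 0.64 against 0.01. In epididymal adipocytes, 2 of 5 were higher (Thbs1, Thbs2) and 1 of 5 lower (Thbs3), where 26.4% and 22.9% of all genes were, and the median was 0.42 against 0.06. These are bulk fractions, so fewer cells of a type and less RNA per cell cannot be told apart.

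**Figure D1:**
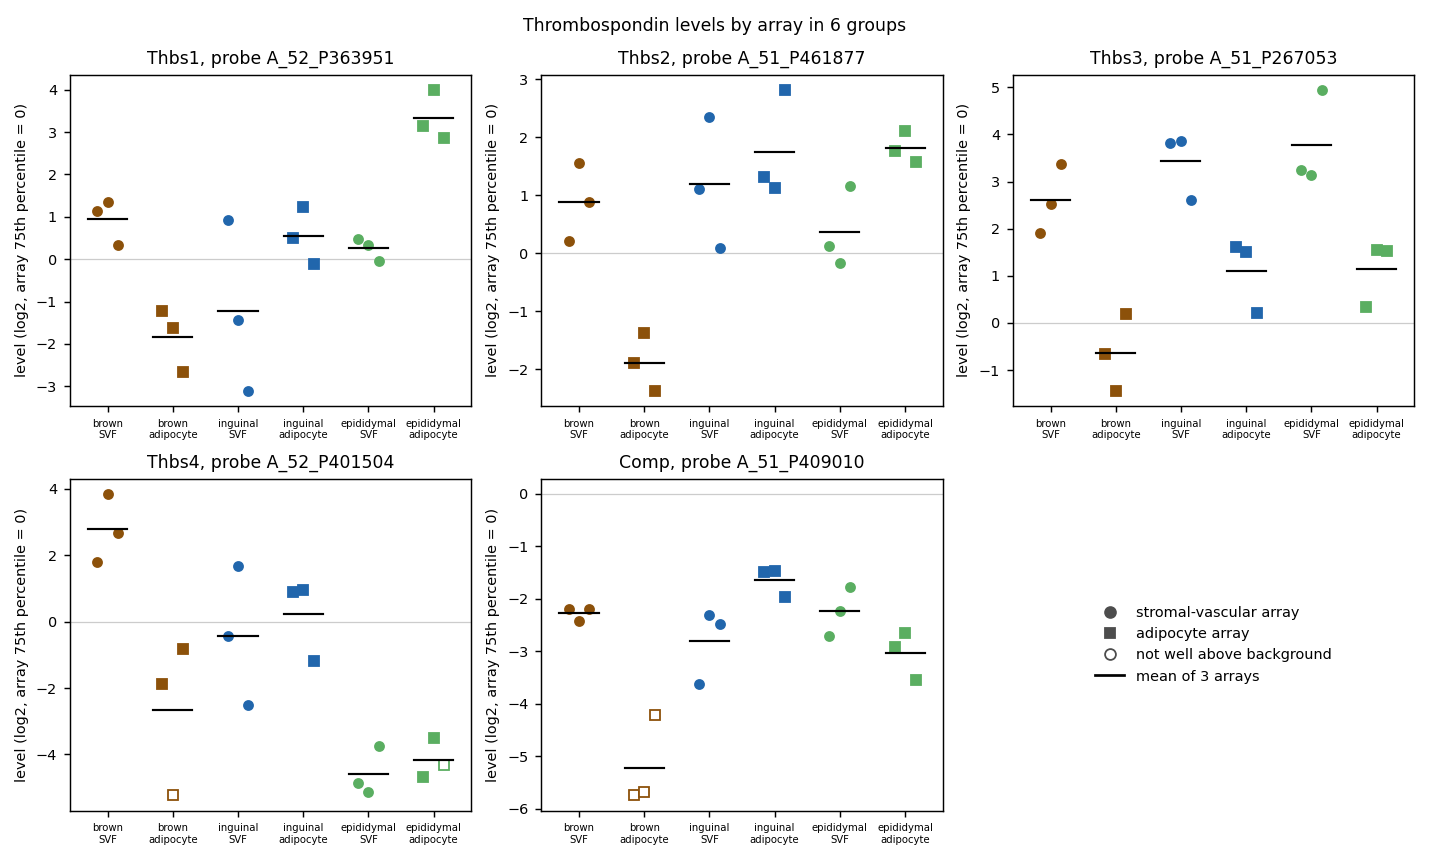
Level of each thrombospondin (log2, array 75th percentile = 0) on the 18 arrays by group, with circles for SVF, squares for adipocytes, open symbols for arrays not well above background, and a line at the mean of 3 arrays. Brown adipocytes have the lowest mean of the 6 groups for Thbs1, Thbs2, Thbs3 and Comp, and epididymal SVF has it for Thbs4.

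**Figure D2:**
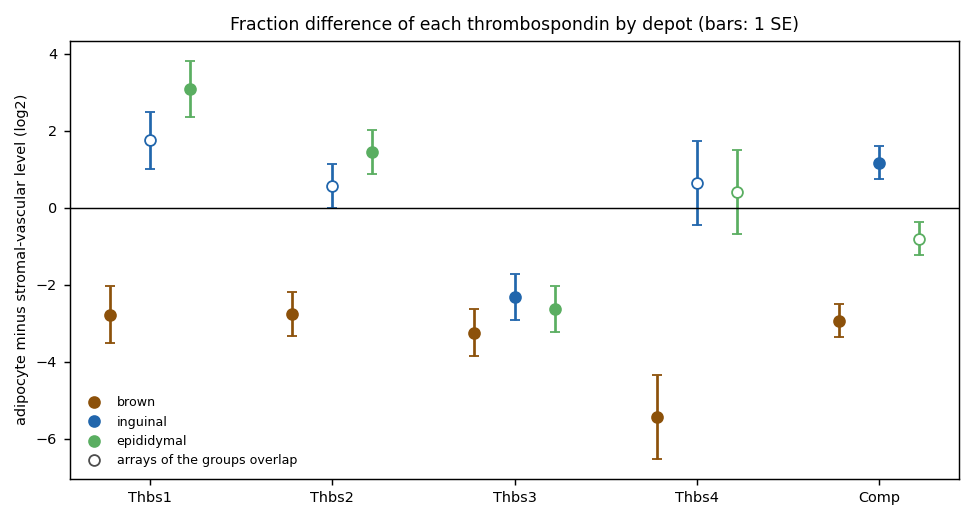
Adipocyte minus SVF level (log2) of each thrombospondin in brown, inguinal and epididymal fat, with bars of 1 SE and open symbols where the arrays of the fractions overlap. All 5 brown differences lie between -5.43 and -2.76, and only Thbs3 is below 0 in all 3 depots without overlap.

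Thbs1, the trimeric family member that activates latent TGF-beta, was highest in epididymal adipocytes and lowest in brown adipocytes. In brown fat its level was 1.15, 1.35 and 0.33 on the SVF arrays (replicates 1, 2 and 3) and -1.23, -1.62 and -2.66 on the adipocyte arrays. The brown fractions were thus apart on every array, by -2.78 ± 0.74 (SE). On slide 1 (2 arrays a fraction) the difference was -2.67 and on slide 2 (1 array a fraction) it was -2.99. In epididymal fat the order was the opposite, with 0.47, 0.33 and -0.03 in the SVF and 3.14, 4.01 and 2.87 in adipocytes, a difference of 3.08 ± 0.74 with no overlap. Inguinal SVF arrays were spread over 0.91, -1.44 and -3.12, and inguinal adipocytes were at 0.49, 1.24 and -0.11. The inguinal fractions therefore overlapped, with a difference of 1.75 ± 0.74 that became 2.82 without inguinal SVF replicate 1 and 0.80 without inguinal SVF replicate 3. Group means ran from 3.34 ± 0.59 (SD, n = 3) in epididymal adipocytes through 0.94 ± 0.54 in brown SVF, 0.54 ± 0.67 in inguinal adipocytes, 0.26 ± 0.26 in epididymal SVF and -1.22 ± 2.03 in inguinal SVF to -1.84 ± 0.74 in brown adipocytes. Epididymal adipocytes stood clear of the next group, and every other neighbouring pair in this order overlapped.

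The 3 Thbs1 probes ran together over the 18 arrays (Pearson r 0.88 to 0.95), but the size of the brown difference differed among them. Probe A_52_P337086 gave -1.12 and A_52_P337092 gave -1.53, and for both the brown fractions overlapped. On slide 2 these probes differed by 0.25 and -0.03 between the brown fractions, against -1.81 and -2.28 on slide 1. The second probe was not well above background on any brown adipocyte array, and the first was on 2 of 3. With the median of the 3 probes in place of the brightest, the brown difference of Thbs1 was -1.06. In epididymal fat all 3 probes were higher in adipocytes without overlap, by 3.03 and 2.46 for these probes.

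**Figure D3:**
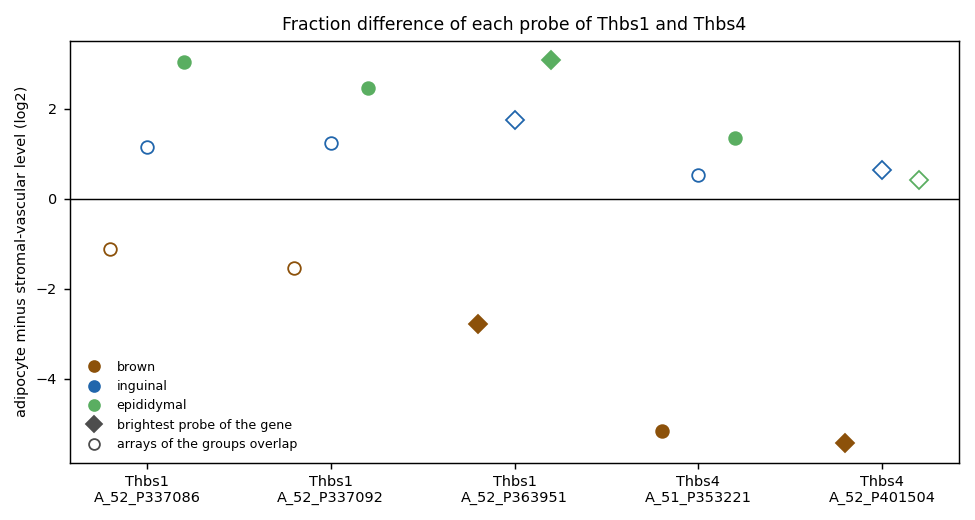
Adipocyte minus SVF level (log2) of each probe of Thbs1 and Thbs4 in 3 depots, with diamonds for the brightest probe of a gene and open symbols where the arrays of the fractions overlap. The 3 Thbs1 probes lie between 2.46 and 3.08 in epididymal fat and between -2.78 and -1.12 in brown fat.

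Markers of other sources of Thbs1 were read on the same arrays. The mean level of 6 platelet and megakaryocyte markers was -1.83 to -1.22 in brown SVF, -2.75 to -1.98 in brown adipocytes, -2.06 to -1.62 in epididymal SVF and -1.71 to -0.81 in epididymal adipocytes, and all 6 had signal in every group. In the epididymal comparison 2 of the 6 were higher in adipocytes, and in the brown comparison 2 of 6 were lower. Each of these counts was 1 without some single arrays (epididymal SVF replicate 2 or adipocyte replicate 1 or 3, and brown SVF replicate 1 or 3 or adipocyte replicate 1 or 3). The mean of 8 digestion and stress genes (among them Fos and Egr1) was 5.46, 4.14 and 3.31 on the 3 inguinal SVF arrays, in the order of their Thbs1 levels. It was higher in epididymal adipocytes (4.46 to 4.71) than in epididymal SVF (3.59 to 4.29) without overlap, as Thbs1 was. In brown SVF (4.73 to 5.22) and brown adipocytes (4.67 to 5.77), where Thbs1 was lower, it overlapped. Inguinal adipocytes lay above every epididymal adipocyte array in this mean (4.85 to 5.39) but below them in Thbs1 without overlap (-2.80). The part of these cells and genes in the Thbs1 levels was not tested.

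Thbs2, the other trimeric member, was lowest in brown adipocytes, and its levels in the other groups overlapped in order. It was measured at 0.21, 1.56 and 0.88 in brown SVF and at -1.90, -1.38 and -2.37 in brown adipocytes, a difference of -2.76 ± 0.57 without overlap. Slides 1 and 2 gave -2.52 and -3.25. Epididymal adipocytes (1.76, 2.11 and 1.58) lay above epididymal SVF (0.12, -0.17 and 1.16) on every array, by 1.44 ± 0.57. Inguinal SVF (1.12, 2.35 and 0.09) and inguinal adipocytes (1.31, 1.12 and 2.82) overlapped, with a difference of 0.56 ± 0.57 that was 0.02 without inguinal SVF replicate 3 and 1.15 without inguinal SVF replicate 2. In the order of means, epididymal adipocytes (1.82 ± 0.27, SD, n = 3), inguinal adipocytes (1.75 ± 0.93), inguinal SVF (1.19 ± 1.13), brown SVF (0.88 ± 0.68) and epididymal SVF (0.37 ± 0.70) each overlapped the next. All 3 brown adipocyte arrays (-1.88 ± 0.50) lay below that row. Thbs1 and Thbs2 thus shared opposite fraction differences in brown and epididymal fat, and Pearson's r of their levels over the 18 arrays, which share their groups, was 0.58.

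Thbs3, a pentameric member known from the growing skeleton, was higher in the SVF of every depot. The SVF arrays read 1.91, 2.53 and 3.38 in brown, 3.81, 3.87 and 2.61 in inguinal and 3.24, 3.13 and 4.95 in epididymal fat. The adipocyte arrays read -0.66, -1.45 and 0.19, then 1.61, 1.51 and 0.22, then 0.34, 1.55 and 1.52 in the same depots. No adipocyte array reached the lowest SVF array of any depot. Brown fat differed by -3.24 ± 0.61, inguinal fat by -2.32 ± 0.61 and epididymal fat by -2.63 ± 0.61. Slides 1 and 2 gave -3.27 and -3.18 for brown fat. The 3 SVF means (3.77 ± 1.02 epididymal, 3.43 ± 0.71 inguinal, 2.60 ± 0.74 brown, SD, n = 3) overlapped each other, as did epididymal and inguinal adipocytes (1.14 ± 0.69 and 1.11 ± 0.77), and brown adipocytes (-0.64 ± 0.82) were below both. The mean of 5 progenitor and fibroblast markers lay at 2.20 to 2.60 in brown, 2.31 to 4.11 in inguinal and 2.85 to 4.09 in epididymal SVF. In adipocytes it lay at -2.65 to -1.59 in brown, -0.62 to 1.39 in inguinal and 0.48 to 1.41 in epididymal fat, and its part in the Thbs3 levels was not tested.

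Thbs4, a pentameric member of tendon and muscle matrix, differed between the depots in the SVF. In brown fat it was at 1.81, 3.85 and 2.68 in the SVF and at -1.89, -5.24 and -0.82 in adipocytes, where 2 of 3 arrays were well above background. The difference was -5.43 ± 1.09 without overlap, or -6.39 on slide 1 and -3.50 on slide 2. In inguinal fat, SVF (-0.43, 1.69 and -2.51) and adipocytes (0.90, 0.96 and -1.19) overlapped, with a difference of 0.64 ± 1.09 that was -0.41 without inguinal SVF replicate 3 and 1.70 without inguinal SVF replicate 2. In epididymal fat, SVF (-4.86, -5.13 and -3.76) and adipocytes (-4.67, -3.50 and -4.32) were both low and overlapped, with a difference of 0.42 ± 1.09. It was -0.66 with quantile normalization. The second Thbs4 probe, A_51_P353221, differed by -5.16 between the brown fractions, by 0.52 between the inguinal and by 1.34 between the epididymal ones, the last without overlap although only 1 of 3 SVF arrays was well above background. Of the brown adipocyte arrays, only 1 of 3 was well above background for this probe. Both probes ran together over the 18 arrays (Pearson r 0.93).

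The SVF of the depots was ordered by Thbs4 alone among the 5 genes. Brown SVF (2.78 ± 1.02, SD, n = 3) was 3.20 ± 1.09 above inguinal SVF (-0.42 ± 2.10) and 7.36 ± 1.09 above epididymal SVF (-4.58 ± 0.73), and inguinal SVF was 4.16 ± 1.09 above epididymal SVF. None of these pairs overlapped, where 11.2%, 9.92% and 4.43% of all genes were higher without overlap and 7.34%, 13.3% and 7.23% lower. For the other 4 genes, the SVF of every pair of depots overlapped. The other Thbs4 probe gave 3.20, 5.65 and 2.46, also without overlap. That probe was well above background on only 1 of 3 epididymal SVF arrays. On slide 2, with 1 array a group, the 3 Thbs4 differences were 5.20, 6.44 and 1.25. Inguinal and epididymal SVF also shared slide 3, with 2 arrays a group, and differed there by 5.62. With slide as a block the brown against epididymal difference was 8.86. In the order of all 6 means, inguinal adipocytes (0.22 ± 1.22), inguinal SVF, brown adipocytes (-2.65 ± 2.30), epididymal adipocytes (-4.16 ± 0.60) and epididymal SVF each overlapped the next, and brown SVF was above all of them.

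Markers of skeletal muscle, nerve and mural cells were read beside Thbs4. The mean level of 5 skeletal muscle markers (Acta1, Ckm, Myh4, Tnnt3, Myh1) was -3.09, 1.61 and -4.06 on the 3 inguinal SVF arrays, in the order of their Thbs4 levels. It was -1.52, 0.26 and -1.51 in brown SVF, 0.02, -2.75 and -1.52 in brown adipocytes, -0.65, -0.85 and -0.85 in inguinal adipocytes, -2.53, -3.71 and -3.44 in epididymal adipocytes and -5.47, -5.05 and -4.85 in epididymal SVF. Ckm and Myh4 were not well above background on any epididymal SVF array. The levels of the brown fractions thus overlapped, while their Thbs4 levels did not. Of the 5, 1 (Myh4) was higher in brown than in epididymal SVF (limma, adjusted p under 0.05), a call lost without brown SVF replicate 2 or epididymal SVF replicate 3, where all 5 had an unadjusted p under 0.05. None passed between brown and inguinal SVF (2 did without inguinal SVF replicate 2) or between the brown fractions, and there 0 of 5 had an unadjusted p under 0.05. The mean of 5 Schwann cell markers was -0.70 to 0.00 in brown, -1.11 to -0.94 in inguinal and -2.51 to -2.18 in epididymal SVF, and 3 of 5 were higher in brown than in epididymal SVF (2 without brown SVF replicate 1 or epididymal SVF replicate 2). In epididymal adipocytes, where Thbs4 overlapped the SVF, 1 of the 5 muscle markers passed in limma, Acta1 (higher by 5.26 ± 0.93, adjusted p 0.00208). Myh4, Tnnt3, Ckm and Myh1 differed there by 2.06, 1.27, 0.96 and -0.06 (adjusted p 0.314 or above). Myh4 and Ckm were each well above background on 1 of 3 epididymal adipocyte arrays. Of 6 mural markers, 4 were lower in brown adipocytes than in brown SVF, among them Acta2 (-4.96 ± 0.45, adjusted p 1.93e-05) and Myh11 (-4.72 ± 0.35, adjusted p 5.17e-06). Also 4 of 6 were higher in brown than in inguinal SVF and 4 of 6 in brown than in epididymal SVF, with Myh11 differing by 2.99 ± 0.35 and 2.51 ± 0.35 (adjusted p 0.000642 and 0.00116). None of the 6 passed in limma between inguinal and epididymal SVF (1 had an unadjusted p under 0.05), where Thbs4 did not overlap. The part of muscle, nerve or mural cells in the Thbs4 levels was not tested.

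**Figure D4:**
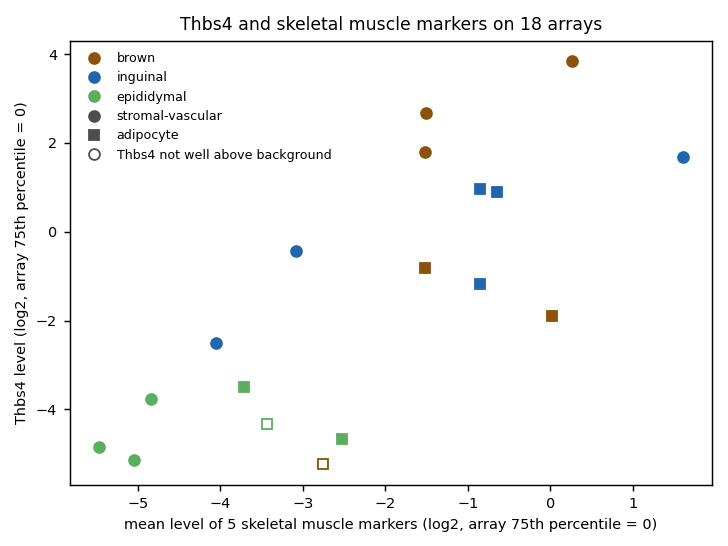
Thbs4 level against the mean level of 5 skeletal muscle markers (both log2, array 75th percentile = 0) on 18 arrays, with colours for depots, circles for SVF, squares for adipocytes and open symbols for Thbs4 not well above background. Both are low on the 6 epididymal arrays, and the brown fractions differ in Thbs4 at overlapping muscle marker levels. Muscle marker means of inguinal SVF replicates 1 and 3 and brown adipocyte replicate 2 fall within the epididymal range.

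Comp, the pentameric member of cartilage and tendon, was highest in inguinal adipocytes and was not well above background on any brown adipocyte array. It read -2.20, -2.42 and -2.20 in brown SVF and -5.75, -5.69 and -4.21 in brown adipocytes. Against the lowest signal well above background, it was at least 3.35-fold lower in brown adipocytes than in brown SVF, and the measured means differed by -2.94 ± 0.43. That difference was -0.75 when the background was corrected by normexp and -1.57 in the deposited matrix, both smaller in size than the bound. Inguinal adipocytes (-1.50, -1.47 and -1.96) lay above inguinal SVF (-3.62, -2.32 and -2.48) by 1.16 ± 0.43, by 0.76 without inguinal SVF replicate 1 and by 0.34 with normexp. Epididymal SVF (-2.70, -2.24 and -1.77) and adipocytes (-2.93, -2.65 and -3.55) overlapped, with a difference of -0.80 ± 0.43 that was -0.33 with normexp and -1.37 with quantile normalization. In the order of means, inguinal adipocytes (-1.64 ± 0.28, SD, n = 3), epididymal SVF (-2.24 ± 0.47), brown SVF (-2.27 ± 0.13), inguinal SVF (-2.81 ± 0.71) and epididymal adipocytes (-3.04 ± 0.46) each overlapped the next. The mean of 5 tendon and cartilage markers was -1.69 to -0.75 in brown SVF and -3.73 to -2.92 in brown adipocytes, and -2.51 to -1.98 in inguinal SVF and -3.29 to -2.89 in inguinal adipocytes. Of these 5, 4 were lower in brown and 2 in inguinal adipocytes (0 or 1 without any 1 inguinal array). The brown Fmod call was lost when any 1 of 3 arrays was left out, and Col2a1 (-3.74) differed by 0.39 with its other probe. In epididymal adipocytes Tnmd, Col2a1 and Fmod were lower and Acan higher (1.83 ± 0.42, adjusted p 0.00646 in limma). The other Col2a1 probe differed there by 1.43. Both the Col2a1 and the Fmod call were lost there without adipocyte replicate 1. Tnmd was not well above background on any adipocyte array. The part of these markers in the Comp levels was not tested.

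Adipocytes of the depots were set against each other in the same way. Brown adipocytes were lower than inguinal adipocytes in 4 of 5 genes without overlap, where 13.9% of all genes were: Thbs1 by -2.37 ± 0.74, Thbs2 by -3.63 ± 0.57, Thbs3 by -1.75 ± 0.61, and Comp, at least 5.20-fold. The other Thbs1 probes gave -1.06 and -1.32, also without overlap, and the median of its probes gave -0.999. Comp differed by -1.73 with normexp and -2.09 in the deposited matrix, which is less than that bound. They were also lower than epididymal adipocytes in 4 of 5, where 25.6% of all genes were. Thbs1 differed there by -5.18 ± 0.74, Thbs2 by -3.70 ± 0.57 and Thbs3 by -1.78 ± 0.61. The other Thbs1 probes gave -3.67 and -3.53, also without overlap, and the median of its probes gave -3.61. Of these, A_52_P337092 (-3.53) was not well above background on any brown adipocyte array. Comp was at least 1.97-fold lower than in epididymal adipocytes, though by only -0.39 with normexp and -0.72 in the deposited matrix on the log2 scale. Both comparisons share the brown adipocyte arrays. Thbs4 overlapped in both (-2.87 ± 1.09 and 1.51 ± 1.09), and its other probe gave -2.48, without overlap, and -0.85. That probe was well above background on only 1 of 3 brown adipocyte arrays. Inguinal adipocytes were higher than epididymal adipocytes in 2 of 5 genes (Thbs4 by 4.39 ± 1.09, Comp by 1.40 ± 0.43), where 11.3% of all genes were, and lower in Thbs1 (-2.80 ± 0.74), where 15.9% were. For Thbs4 the other probe gave 1.63, also without overlap, and normexp gave 2.83. Thbs2 (-0.07 ± 0.57) and Thbs3 (-0.03 ± 0.61) overlapped between the white depots.

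Promoter sequence is shown for the members with an entry in the RefSeq table of the build GRCm38.p6, Thbs2, Thbs3 and Thbs4, since all 3 were lower in brown adipocytes than in brown SVF. Each is the 250 bases before the gene's start on the gene's strand, and the capitals mark matches, on either strand, to the searched motifs.
Thbs2, chr17:14694263-14694512, minus strand: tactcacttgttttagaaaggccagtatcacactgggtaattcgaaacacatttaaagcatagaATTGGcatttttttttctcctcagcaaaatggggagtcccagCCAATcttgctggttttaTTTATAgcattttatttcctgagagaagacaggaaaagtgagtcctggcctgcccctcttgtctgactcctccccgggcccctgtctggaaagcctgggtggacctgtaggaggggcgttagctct
Thbs3, chr3:89214930-89215179, plus strand: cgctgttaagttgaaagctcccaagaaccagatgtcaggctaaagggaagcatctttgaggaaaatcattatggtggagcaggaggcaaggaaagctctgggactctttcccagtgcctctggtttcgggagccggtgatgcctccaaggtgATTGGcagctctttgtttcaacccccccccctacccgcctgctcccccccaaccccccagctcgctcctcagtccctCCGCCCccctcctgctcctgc
Thbs4, chr13:92794819-92795068, minus strand: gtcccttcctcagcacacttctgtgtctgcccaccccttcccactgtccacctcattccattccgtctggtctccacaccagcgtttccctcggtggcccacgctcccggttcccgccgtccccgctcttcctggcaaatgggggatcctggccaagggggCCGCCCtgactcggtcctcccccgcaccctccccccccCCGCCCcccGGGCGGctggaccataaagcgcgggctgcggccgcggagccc
The motifs were the TATA box (TATAAA, in 12.4% of 32851 promoters), the CCAAT box (CCAAT, 33.8%), the GC box (GGGCGG, 32.7%), the AP-1 site (TGANTCA, 6.75%), the C/EBP site (TTGCNNAA, 9.56%) and a palindromic EBF site (0.779%). Thbs2 had 1 TATAAA match and 2 CCAAT matches, beginning 126, 186 and 144 bases before the start. Thbs3 had 1 CCAAT match at 98 bases and 1 GGGCGG match at 21 bases, and Thbs4 had 3 GGGCGG matches at 89, 51 and 42 bases. No letters matching the other 3 motifs are in these windows, and G and C made up 46.8%, 58.8% and 70.8% of them in the order given.

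The genes whose levels were most like each member over the 18 arrays were taken by Pearson's r, as a description, since arrays of a group share their source. Thbs3 had the closest, with Islr (0.99), Antxr1 (0.98) and Dnm1 (0.98). Thbs1 was most like Nap1l3 (0.92), Adap2 (0.90) and Gjc1 (0.87), and Thbs2 most like Ptgfr (0.89), Chrdl1 (0.87) and Cpne2 (0.86). Comp was nearest to Ackr1 (0.91), Tbx1 (0.88) and Fmnl2 (0.87), and Thbs4 to Mlip (0.86) and Sbspon (0.84). Without the 2 libraries that stood apart in the rule fixed for this measure, inguinal SVF replicate 1 and epididymal adipocyte replicate 3, these values were 0.84 to 0.99. Between members, r ran from -0.09 (Thbs1 and Thbs4) to 0.68 (Thbs2 and Comp).

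Partner genes here are those that act with thrombospondins, other proteins with type 1 repeats and other matricellular proteins. They were tested in 5 lists of 96 genes, of which 88 passed the filter, with p-values adjusted over all 19218 genes. The lists were chosen with earlier results of these data known, so their shares beside those of all genes are a description. In brown fat 43 of the 88 were lower and 3 higher in adipocytes (8.35% and 12.7% of all genes were). In inguinal fat 15 were lower and 5 higher (4.87% and 9.07%), and in epididymal fat 21 were lower and 6 higher (7.05% and 18.0%). The inguinal total of 20 became 11 without SVF replicate 1, 9 without SVF replicate 2 and 5 without adipocyte replicate 3, and the epididymal total of 27 became 17 without SVF replicate 3 and 14 without adipocyte replicate 1. Markers of progenitors and fibroblasts (5 of 5), macrophages (4 of 5), mural cells (4 of 6) and tendon and cartilage (4 of 5) were lower in brown adipocytes as well, and their part in the list counts was not tested.

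**Figure D5:**
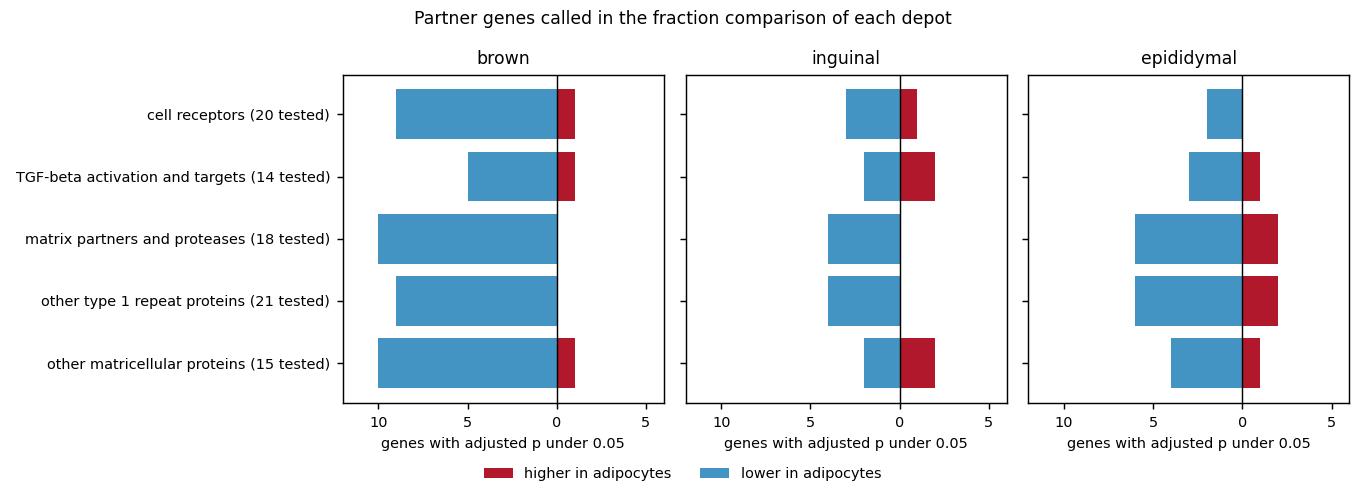
Number of genes in each of 5 lists with an adjusted p under 0.05 in the adipocyte against SVF comparison of brown, inguinal and epididymal fat, with higher genes to the right of 0 and lower genes to the left. In brown fat 9, 5, 10, 9 and 10 genes were lower in the lists from top to bottom.

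Of 20 cell receptors of thrombospondins, 9 were lower and 1 higher in brown adipocytes, with a list median of -0.82 against 0.15 over all genes. Integrin alpha 9 (Itga9) was lower by 3.26 ± 0.34 on the log2 scale (adjusted p 5.21e-05). Cacna2d1, the calcium channel subunit that binds thrombospondins at synapses, differed by -2.34 ± 0.46 (adjusted p 0.00255). Itgb3, the integrin subunit that pairs with Itgav, differed by -3.07 ± 0.37 (adjusted p 0.000137), although its other probe differed by 1.72, and Itgam by -2.50 ± 0.83 (adjusted p 0.0447). The Itgam call was lost when any 1 of 5 arrays was left out, with an adjusted p of up to 0.158, and 1 of 3 brown adipocyte arrays was well above background. The gene that was higher was Vldlr, a lipoprotein receptor. In inguinal adipocytes 3 receptors were lower and 1 higher, and in epididymal adipocytes 2 were lower and none higher. Itga9 was lower in both (-1.30 ± 0.34, adjusted p 0.021, and -1.38 ± 0.34, adjusted p 0.00979).

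The receptors with the best known ligands in the family were followed in each comparison. Cd36, the fatty acid transporter and thrombospondin 1 receptor, was at 5.87 to 6.54 in brown SVF and 6.39 to 6.63 in brown adipocytes (0.39 ± 0.31, adjusted p 0.431). It was higher in inguinal adipocytes (1.07 ± 0.31, adjusted p 0.0346, up to 0.14 without 1 array) and differed by 0.63 ± 0.31 in epididymal fat (adjusted p 0.155). Cd47, the signal-regulating receptor of the thrombospondin C terminus, was lower in adipocytes of all 3 depots: by -0.77 ± 0.23 in brown (adjusted p 0.0287), -1.08 ± 0.23 in inguinal (0.00803) and -0.75 ± 0.23 in epididymal fat (0.0295). The brown call was lost when any 1 of 4 arrays was left out, and the epididymal call when any 1 of 5 was. Lrp1, an endocytic receptor, and Tgfb1 passed the test in none of the 9 comparisons between groups (adjusted p 0.264 or above for Lrp1 and 0.328 or above for Tgfb1). Itgav was lower only in the brown fraction test among the 9 (-0.88 ± 0.28, adjusted p 0.0385), and that call was lost when any 1 of 5 arrays was left out. Adamts1, a protease that cleaves thrombospondins, passed none (adjusted p 0.146 or above).

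Notch3, a mural cell receptor that binds thrombospondin 2, was lower in brown adipocytes than in brown SVF. It read 3.96, 3.58 and 4.00 in brown SVF and 1.32, 1.54 and 2.21 in brown adipocytes, a difference of -2.16 ± 0.25 (adjusted p 0.000109). In inguinal fat it differed by 0.29 ± 0.25 (adjusted p 0.454) and in epididymal fat by 0.17 ± 0.25 (adjusted p 0.653). The brown fraction difference was lower than the inguinal one by 2.45 ± 0.35 (interaction, adjusted p 0.00256) and than the epididymal one by 2.33 ± 0.35 (adjusted p 0.00387). Notch3 was also higher in brown than in inguinal SVF (1.70 ± 0.25, adjusted p 0.00256) and epididymal SVF (1.37 ± 0.25, adjusted p 0.00825). Notch3 is itself 1 of the 6 mural markers, whose mean was 4.19 to 4.38 in brown SVF, 1.98 to 2.30 in brown adipocytes and 1.63 to 3.39 in the other 4 groups.

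Of 14 genes of TGF-beta activation and its targets, 5 were lower and 1 higher in brown adipocytes (median -0.69). Ltbp1, which tethers latent TGF-beta to matrix, differed by -4.12 ± 0.57 and Ccn2, a TGF-beta target, by -3.91 ± 0.55 (adjusted p 0.000306 each). Tgfbi, another target, differed by -3.22 ± 0.49 (adjusted p 0.000445), and Ltbp2 was higher by 2.81 ± 0.67 (adjusted p 0.0074). In inguinal adipocytes Ltbp2 was higher by 2.60 ± 0.67 (adjusted p 0.0196) and Tgfb2, a TGF-beta ligand, differed by -2.21 ± 0.55 (adjusted p 0.0175), and each of these calls was lost when any 1 of 3 arrays was left out. Tgfbr2, a TGF-beta receptor, was lower in inguinal and in epididymal adipocytes (-0.93 ± 0.24, adjusted p 0.0178, and -1.28 ± 0.24, adjusted p 0.0025). Inguinal adipocytes had 2 genes higher and 2 lower in all, and epididymal adipocytes 1 higher and 3 lower. The fraction differences of Ccn2 and Tgfb3 were lower in brown than in both white depots by interaction, at adjusted p-values from 0.0223 to 0.0484. Each of these 4 calls was lost when some single arrays were left out.

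Of 18 matrix partners and proteases, 10 were lower and none higher in brown adipocytes (median -1.98). Among them were the collagens Col14a1 (-5.64 ± 0.88, adjusted p 0.00052) and Col1a1 (-3.95 ± 0.44, adjusted p 9.46e-05). The matrix protease Mmp2, whose uptake thrombospondin 2 promotes, differed by -4.45 ± 0.62 (adjusted p 0.000307) and fibronectin (Fn1) by -4.34 ± 0.73 (adjusted p 0.000819). In inguinal adipocytes 4 were lower, and Col14a1 led with -4.10 ± 0.88 (adjusted p 0.00776). In epididymal adipocytes 6 were lower and 2 higher (Col9a2 and Acan). Fn1 differed there by -3.53 ± 0.73 (adjusted p 0.00395) and Mmp2 by -3.07 ± 0.62 (adjusted p 0.0038). Acan, the cartilage proteoglycan that binds Comp, was higher in brown SVF than in inguinal SVF (2.69 ± 0.42, adjusted p 0.00363) and epididymal SVF (2.90 ± 0.42, adjusted p 0.00153). Acan and Col2a1 are also in the list of tendon and cartilage markers.

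Of 21 other proteins with type 1 repeats, 9 were lower and none higher in brown adipocytes (median -1.55). Adamtsl1, a matrix protein related to ADAMTS proteases, was at least 14.8-fold lower (adjusted p 5.98e-05) and Adamtsl4 at least 6.68-fold (adjusted p 0.000801), as neither was well above background on a brown adipocyte array. Cilp, the cartilage intermediate layer protein, differed by -5.94 ± 0.98 (adjusted p 0.000769) and Thsd4 by -4.13 ± 0.68 (adjusted p 0.000714), and for both 1 of 3 brown adipocyte arrays was well above background. In inguinal adipocytes 4 were lower, and in epididymal adipocytes 6 were lower and 2 higher (Sema5b and Adgrb1). Spon1, F-spondin, differed by -2.99 ± 0.50 in epididymal fat (adjusted p 0.00167). Cilp was also lower in adipocytes of inguinal fat (-3.29 ± 0.98, adjusted p 0.0381) and of epididymal fat (-3.09 ± 0.98, adjusted p 0.0323). These Cilp calls were lost when any 1 of 3 and of 5 arrays was left out.

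Of 15 other matricellular proteins, secreted modulators of the matrix like the thrombospondins, 10 were lower and 1 higher in brown adipocytes (median -2.26). Fibulin 1 (Fbln1) differed by -5.30 ± 0.78 (adjusted p 0.000376) and Smoc2 by -4.22 ± 0.58 (adjusted p 0.000279). Ccn3 was at least 3.43-fold and Ccn4 at least 3.32-fold lower (adjusted p 0.00253 and 0.00246). Smoc1, the paralogue of Smoc2, went the other way. Its adipocyte level exceeded that of the SVF by 5.48 ± 0.76 in inguinal fat (adjusted p 0.000736) and by 4.00 ± 0.76 in epididymal fat (adjusted p 0.00285), and it was the gene that was higher in brown adipocytes. Fstl1 was lower in white adipocytes, by -2.59 ± 0.57 in inguinal (adjusted p 0.00937) and -2.62 ± 0.57 in epididymal fat (adjusted p 0.00534). In all, 2 were higher and 2 lower in inguinal adipocytes, and 1 higher and 4 lower in epididymal adipocytes. Tenascin C (Tnc) was higher in brown than in inguinal SVF (3.44 ± 0.45, adjusted p 0.000993) and epididymal SVF (2.61 ± 0.45, adjusted p 0.0055).

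Between adipocytes of different depots, 26 of the 88 partner genes were lower and 2 higher in brown than in inguinal adipocytes (5.84% and 6.37% of all genes were), and 41 lower and 3 higher in brown than in epididymal adipocytes (16.4% and 12.3%). The first total, 28, became 16 without inguinal adipocyte replicate 1. Ccn5 was lower by 4.31 ± 0.77 and 5.84 ± 0.77 on the log2 scale (adjusted p 0.00349 and 0.000227), with 1 of 3 brown adipocyte arrays well above background, and Adamts5, a protease of cartilage proteoglycans, by 3.49 ± 0.46 against epididymal adipocytes (adjusted p 0.000228). Inguinal and epididymal adipocytes differed in 3 genes, Itgb1, Adamtsl2 and Sema5b, all lower in inguinal (6.77% of all genes were). The total was 0 without inguinal adipocyte replicate 1, epididymal adipocyte replicate 1 or epididymal adipocyte replicate 3, and 6 without inguinal adipocyte replicate 3. Among SVF groups, 3 were higher and 1 lower in brown than in inguinal SVF (1.80% and 0.474%), 3 higher and 2 lower in brown than in epididymal SVF (1.06% and 0.723%), and none higher and 1 (Matn2) lower in inguinal than in epididymal SVF (0.0572% and 0.239%). Without inguinal SVF replicate 1 the first of these totals became 8 and the last 4, and the last was 2 without inguinal SVF replicate 2 and 0 without any 1 epididymal SVF array. By interaction, 6 partner genes had a lower fraction difference in brown than in inguinal fat (0.723% of all genes did) and 6 in brown than in epididymal fat (1.48%), and none passed between inguinal and epididymal fat (0.0156% of all genes were higher and 0.0624% lower), where 6 of 88 had an unadjusted p under 0.05 in limma. None had a higher one in brown fat (0.135% and 0.536% of all genes did). Leaving out single arrays moved these totals to between 1 and 12, 2 and 7, and 0 and 1.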

How the data were processed

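The deposited files hold 1 scanner output for each of 18 one-colour Cy3 arrays, and their spot intensity values were background-corrected and detrended within the array by the scanner software, per the file headers. A deposited matrix of log2 values for 31201 probes, whose normalization by the authors is not stated, served as an alternative only. From the processed intensity, log2 values minus the array's 75th percentile were taken, spots of a probe were averaged, and 28598 probes well above background on all arrays of a group were kept. A gene is its brightest probe by mean level. Members have no test. Partner genes were tested with limma 3.58.1 in R 4.3.3 over all 6 groups, with Benjamini-Hochberg adjustment over 19218 genes and a threshold of 0.05. The members and the gene lists were chosen with earlier results of these data known. In each list and comparison, up to 4 called partner genes with the largest differences could be named, besides 8 genes followed throughout. Genes named outside that rule, where a direction held few, were chosen after their values were seen. Some single genes are counted but not reported by name here. Same-numbered arrays deviated together in the epididymal fraction comparison (correlations 0.42, 0.48 and 0.14), which was treated as paired in an alternative, and not in every pair of the other fraction comparisons. The labels do not say whether replicates came from separate animals, so p-values measure the spread between these arrays. The number of arrays limits the precision.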

Additional observations from a re-analysis of the deposited data

Results flagged for a closer look

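By their brightest probes, 3 thrombospondins had fraction differences of opposite direction in different depots, with every array of one fraction on one side. Over all genes, 17.1% were lower in brown, 26.4% higher in epididymal and 16.5% higher in inguinal adipocytes without overlap. The share of genes with opposite directions is not given here, so nothing is read from the count. Thbs1 differed by -2.78 in brown and 3.08 in epididymal fat, and Thbs2 by -2.76 and 1.44. The other Thbs1 probes gave -1.12 and -1.53 in brown fat, where their arrays overlapped, and 0.25 and -0.03 on slide 2, and the median of probes gave -1.06. The Comp means differed by -2.94 in brown and 1.16 in inguinal fat. Comp was not well above background on any brown adipocyte array, so it was at least 3.35-fold lower there by its bound, and the difference was -0.75 with normexp and -1.57 in the deposited matrix. The inguinal value was 0.34 with normexp. These opposite directions were not tested against each other, since the family was chosen on these values. In white fat the fractions cannot be told apart from software, slide and scan day.

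Among the partner genes given here, 6 had a fraction difference in brown fat that differed from that in white fat by an interaction in limma (adjusted p under 0.05). For Notch3 the difference was -2.45 against inguinal fat (adjusted p 0.00256) and -2.33 against epididymal fat (adjusted p 0.00387). Against inguinal and epididymal fat in turn, it was -2.27 and -1.99 for Sdc1, -2.82 and -2.70 for Tgfb3, and -3.50 and -3.74 for Ccn2. These 6 values had adjusted p-values of 0.0223 to 0.0486, and each was lost when some single arrays were left out. Acan differed by -3.64 against epididymal fat (adjusted p 0.00589) and Adamtsl1 by -3.92 against inguinal fat (adjusted p 0.04, lost when any 1 of 8 arrays was left out).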

How the results depend on the processing

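The 24 member differences whose arrays did not overlap kept their sign in all 446 alternative values, of which 26 moved by more than 1 SD of the replicates. Over all 45 member differences, 22 of 837 values changed sign. The brown difference of Comp was -1.57 in the deposited matrix, and Thbs4 in brown against epididymal SVF was 8.86 with slide as a block and 6.03 with normexp. Partner genes called in the main setting were 46, 20 and 27 for the brown, inguinal and epididymal fractions, 28, 44 and 3 for adipocytes (brown against inguinal, brown against epididymal, inguinal against epididymal), 4, 5 and 1 for SVF in that order, and 6, 6 and 0 for the interactions. With normexp on median signals, added after seeing the data because the planned normexp on mean signals could not be run for 12 of the arrays, brown gave 29, inguinal 6, adipocytes 18, 23 and 0, SVF 12 (brown against inguinal) and 18 (inguinal against epididymal), and the brown minus inguinal interaction 3. There Adamtsl2 was 0.25 in inguinal against epididymal adipocytes, the reverse of its main direction. Without a filter, inguinal gave 12, inguinal against epididymal SVF 0, and the interactions 1 and 3. With only the arrays compared, inguinal gave 1, SVF 0, 11 and 0, and the interactions 1 and 22. Without 2 libraries that stood apart, inguinal gave 11, inguinal against epididymal adipocytes 0, SVF 9 (brown against epididymal) and 3 (inguinal against epididymal), and the brown minus inguinal interaction 10. Without 3, which leaves 1 epididymal adipocyte array assumed to vary like the others, inguinal gave 11, epididymal 1, adipocytes 18 and 0 against epididymal, SVF 8 and 3, and the brown minus epididymal interaction 1. With probes above background on all 18 arrays, adipocytes against epididymal gave 29 and 0, and inguinal against epididymal SVF 0. Quantile normalization gave 1 for inguinal against epididymal adipocytes, the matrix 7 and 2 for inguinal SVF (against brown, against epididymal), and the median of probes 2 for the brown minus inguinal interaction. The replicate block gave 45, 19 and 26 for the fractions and 0 for inguinal against epididymal SVF, where slide and scan day as blocks also gave 0. Slide gave 1 for brown against epididymal SVF. Leaving out 1 array gave 36 to 44, 5 to 30 and 14 to 25 for the fractions, 16 to 33, 31 to 41 and 0 to 6 for adipocytes, 3 to 8, 4 and 0 to 4 for SVF, and 1 to 12, 2 to 7 and 0 to 1 for the interactions. The causes were not tested.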
